A study of Homo sapiens with 6 samples.

Results

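A673 and SK-N-MC are established human cell lines grown from Ewing tumors, and their expression was compared here gene by gene. The comparison uses 6 of 6 arrays in the series, chosen by the cell line named in the labels: 3 arrays of A673 and 3 of SK-N-MC. In each line 1 sample had received a control siRNA (small interfering RNA, a short duplex that lowers a matching transcript), and 2 had received STEAP1 siRNA, each at 5 nM for 48 h. The silenced samples are labelled siSTEAP1_2 and siSTEAP1_3 and are called siRNA 2 and siRNA 3 here, although the labels do not say whether these numbers mark different siRNAs or repeats. The A673 control is numbered 2 and the SK-N-MC control has no number, so whether both lines received the same control siRNA is not known, and a difference in the control pair may hold a difference of control siRNA. All 6 arrays come from transfected cells, and silencing was balanced over the lines and entered the fit as a covariate. Whether the 3 arrays of each line were separate cultures is not stated, and the spread behind each p-value may be technical. Each line is also 1 line, so a difference is between these cultures and not between classes of tumor. RNA came from whole cultures, and fewer cells expressing a gene and less RNA per cell cannot be told apart.

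Ewing tumors are bone and soft tissue cancers in which a chromosomal fusion joins EWSR1 to an ETS gene, most often FLI1. The fusion protein binds repeats of the motif GGAA and switches on genes such as NKX2-2, PRKCB and STEAP1 while it represses mesenchymal genes. Cells with this fusion carry CD99 on their surface and stand between a neural and a mesenchymal state. SK-N-MC was long classed as a neuroblastoma line before the fusion was known.

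Each level below is log2 of the intensity as deposited, so a difference of 1 is 2-fold, and differences are A673 minus SK-N-MC with the standard error (SE) of the limma fit. Genes were called at a Benjamini-Hochberg adjusted p under 0.05 over 18417 genes. Median intensities of the arrays lay between 6.01 and 6.48 before log2, and arrays of different lines correlated at 0.946 to 0.949 across genes beside 0.986 to 0.993 within a line. Calls covered 24.8% of genes, 13.5% higher in A673 and 11.4% in SK-N-MC, and 68.5% of the calls were under 2-fold. The median difference over all genes was -0.02. In 37.9% of all genes the arrays of the 2 lines did not overlap, so a lack of overlap is common here. Of 4575 called genes, 4574 had the same sign in the control pair and in both siRNA pairs. These pairs are made of the arrays that gave the calls, so the shared sign is not separate support. Differences of at least 4-fold were called for 212 genes higher in A673 (1.15%) and 111 in SK-N-MC (0.603%), as the plot of A673 against SK-N-MC levels shows. Calls were rarer among dim genes, at 4.49% of genes with a mean log2 under 2 and 41.4% of those at 8 or more.

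**Figure D1:**
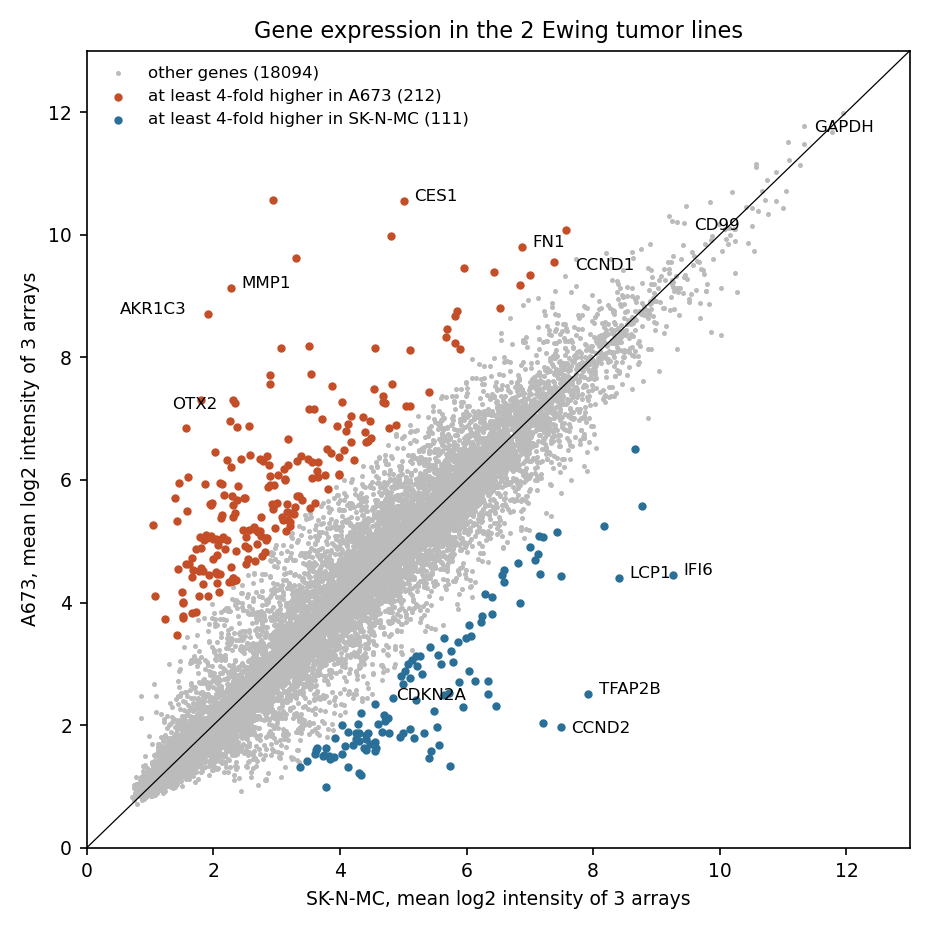
Mean log2 intensity of each gene over 3 A673 arrays (vertical axis) against 3 SK-N-MC arrays (horizontal axis), with the line of equal level. The 212 genes called at least 4-fold higher in A673 lie above the line and the 111 called at least 4-fold higher in SK-N-MC below it, and CD99 and GAPDH lie near it.

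Of 9 measured Ewing tumor markers, 7 were not called different between the lines, and FLI1 was the dimmest at 3.78 to 4.04. CD99, the surface protein used in diagnosis, was at 10.09, 10.21 and 10.25 in A673 (control, siRNA 2, siRNA 3, the order used throughout) and at 9.40, 9.50 and 9.41 in SK-N-MC. The arrays did not overlap, and CD99 was called higher in A673 (0.75, SE 0.10, adjusted p = 0.00101). The protein phosphatase inhibitor gene PPP1R1A was called slightly higher in SK-N-MC (-0.41, SE 0.12), but not without either control array or either siRNA 3 array. Leaving out either control array gives the same fit here and below, that of the siSTEAP1 arrays alone. The silencing term then takes up the remaining control array, so the control arrays are not checked separately. The other 7 measured markers were not called: NKX2-2 (-0.21, SE 0.16), PRKCB (0.23, SE 0.13), LIPI (0.32, SE 0.19), BCL11B (-0.11, SE 0.11), STEAP1 (-0.23, SE 0.23), EWSR1 (0.09, SE 0.10) and FLI1 (0.19, SE 0.10). STEAP1, the silenced transcript, was at 6.23, 4.53 and 4.59 in A673 and at 7.15, 4.17 and 4.73 in SK-N-MC, so its control array was the highest in both lines. The fusion partner ERG lay at 1.34 to 1.47 on all arrays, near the dimmest values. The array does not measure the fusion transcript as such.

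Markers of other cell types were mostly dim in both lines. All 12 endothelial markers, 11 of 12 rhabdomyosarcoma markers, 8 of 11 epithelial markers, 7 of 10 neuroblastoma markers and 7 of 9 blood cell markers lay under a log2 of 4 on every array. The blood cell list held an exception. LCP1, an actin-bundling protein of leukocytes that many tumor lines also make, was at 4.78, 4.30 and 4.09 in A673 and at 8.54, 8.44 and 8.25 in SK-N-MC (-4.02, SE 0.13, adjusted p = 7.45e-07). Of the 12 fibroblast markers, 2 (16.7%, beside 13.5% of all genes) were called higher in A673, THY1 and FBN1. In SK-N-MC 4 (33.3%, beside 11.4%) were called higher, DCN, FAP, COL1A2 and COL1A1, and 2 without either control array.

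Secreted and matrix proteins were among the genes furthest above their SK-N-MC level in A673. MMP1, the interstitial collagenase, was at 9.91, 8.14 and 9.36 in A673 and at 2.69, 2.19 and 1.98 in SK-N-MC (6.85, SE 0.28, adjusted p = 2.37e-06). TNFAIP6, a hyaluronan-binding protein, was at 7.27, 7.24 and 7.41 in A673 and at 1.74, 1.99 and 1.71 in SK-N-MC. FN1, fibronectin, was bright in both lines, at 9.85, 9.50 and 10.05 in A673 and 7.42, 6.17 and 7.03 in SK-N-MC (2.92, SE 0.26). None of these 3 genes overlapped between the lines, beside 37.9% of all genes without overlap. MMP1 stood alone among its neighbours of the same kind: the 8 other matrix metalloprotease genes measured from its cluster lay between 0.84 and 2.41 on every array, and 0 of them were called. The protease inhibitor SERPINE2 (2.27, SE 0.11) and the adhesion protein TGFBI (3.82, SE 0.28) were also higher in A673. TIMP3, an inhibitor of metalloproteases, went the other way, at 4.25, 4.10 and 3.92 in A673 and 6.68, 6.49 and 6.03 in SK-N-MC (-2.31, SE 0.14), with -0.50 in its dimmer probe set. In all, 9 of 31 matrix proteases and inhibitors (29.0%, beside 13.5% of all genes) were called higher in A673 and 2 in SK-N-MC. Among 55 collagens, laminins and matrix glycoproteins the calls were 10 (18.2%, beside 13.5%) and 12 (21.8%, beside 11.4% of all genes), with a median of -0.05.

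Enzymes that handle drugs, steroids and retinoids separated the lines with large differences in both directions. AKR1C3, an aldo-keto reductase that acts on steroids and prostaglandins, was at 8.77, 8.73 and 8.61 in A673 and at 1.71, 2.29 and 1.73 in SK-N-MC (6.79, SE 0.17, adjusted p = 1.93e-07). CES1, a carboxylesterase that cleaves esters and prodrugs, was at 10.45, 10.61 and 10.58 in A673 and at 5.12, 4.77 and 5.13 in SK-N-MC. The glutathione transferase GSTM4, a known target of the fusion protein, was at 7.99, 8.48 and 7.97 in A673 and at 4.77, 4.31 and 4.56 in SK-N-MC (3.60, SE 0.18). Every A673 array lay above every SK-N-MC array for the 3 genes (37.9% of all genes had no overlap). GSTM1 (3.01, SE 0.23) and AKR1C1 (4.45, SE 0.27) were also higher in A673, but the dimmer probe set of AKR1C1 differed by only 0.72 (adjusted p = 0.0716). Near-identical copies within the AKR1C and GSTM families can share probes, which makes their single values uncertain. Higher in SK-N-MC were CYP1B1, a cytochrome that oxidises estrogens (-3.85, SE 0.16), UGT8, which makes galactosylceramide (-2.64, SE 0.16), ALDH1A1, which makes retinoic acid (-2.57, SE 0.22), and CYP26B1, which degrades it (-1.90, SE 0.25). Of 35 such enzymes, 11 (31.4%, beside 13.5% of all genes) were called higher in A673 and 7 (20%, beside 11.4%) in SK-N-MC.

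Receptors, adhesion proteins and transcription factors gave further genes near the dim end in 1 line only. In A673, DCC, the netrin receptor, was at 6.84, 6.87 and 6.81 and in SK-N-MC at 1.31, 1.63 and 1.77 (5.27, SE 0.12). OTX2, a homeobox factor of the forebrain, was at 7.19, 7.30 and 7.29 in A673 and at 2.95, 2.07 and 2.0 in SK-N-MC (4.92, SE 0.20). DLX5, a homeobox factor of bone and neural crest, was at 7.02, 6.92 and 6.95 in A673 and at 1.97, 2.49 and 2.35 in SK-N-MC (4.69, SE 0.14). The 3 genes were even across the A673 arrays and dim on every SK-N-MC array. The potassium channel subunit KCNE4 (4.99, SE 0.12), the desmosome protein PKP1 (4.67, SE 0.18), the lipid flippase ATP8B1 (4.43, SE 0.11), the decoy receptor TNFRSF10D (4.31, SE 0.18), the bHLH factor MSC (3.90, SE 0.14) and the protocadherin PCDH7 (3.60, SE 0.18) followed. N-cadherin (CDH2) was at 5.41, 4.92 and 4.92 in A673 and at 2.04, 2.28 and 1.55 in SK-N-MC (3.13, SE 0.19), and 15 of 43 adhesion genes (34.9%, beside 13.5% of all genes) were called higher in A673 against 7 (16.3%, beside 11.4%) in SK-N-MC. Every array of 1 line at 8 or more and every array of the other under 4 was found for 5 genes, AKR1C3, CSRP1, H2BC14, H3C11 and MMP1. All 5 were on in A673, and 0 genes met that rule in SK-N-MC.

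**Figure D2:**
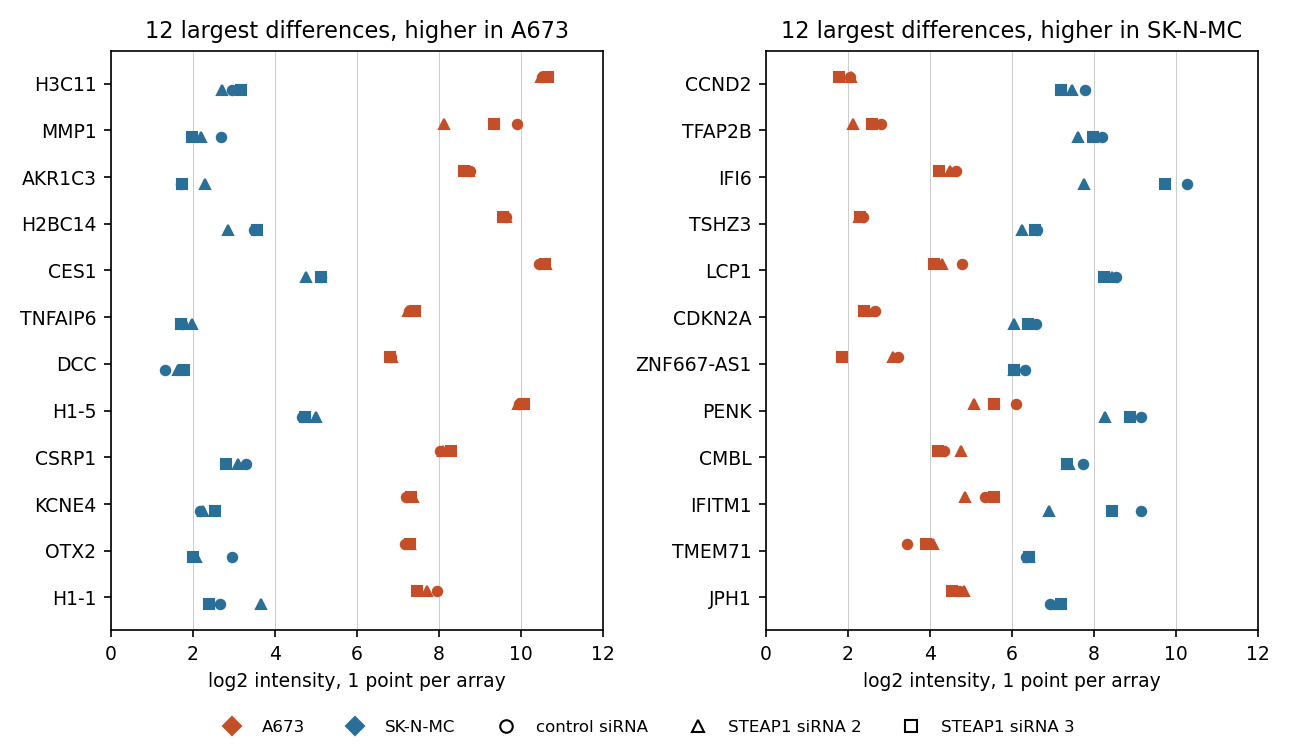
Log2 intensity of the 12 genes with the largest called differences in each direction, limited to genes whose lowest array in the higher line is at log2 6 or more; each point is 1 array, orange for A673 and blue for SK-N-MC, with symbols for the siRNA. No gene shown overlaps between the lines, beside 37.9% of all genes without overlap, and these genes were picked by the size of their difference. The SK-N-MC arrays of IFI6 and IFITM1 are spread over more than 2 log2 units.

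Genes higher in SK-N-MC included a cyclin, transcription factors and a secreted peptide, beside the interferon-stimulated genes described further on. CCND2, cyclin D2, was at 7.78, 7.47 and 7.21 in SK-N-MC and at 2.05, 2.07 and 1.79 in A673 (-5.52, SE 0.14, adjusted p = 1.98e-07). TFAP2B, an AP-2 factor of the neural crest, was at 8.19, 7.61 and 7.98 in SK-N-MC and at 2.80, 2.13 and 2.59 in A673 (-5.42, SE 0.16). TSHZ3, a zinc finger homeobox factor, was at 6.62, 6.24 and 6.56 in SK-N-MC and at 2.37, 2.26 and 2.30 in A673 (-4.16, SE 0.12). The 3 genes were thus near the dim end on all A673 arrays. PENK, which encodes the enkephalin precursor, was high in SK-N-MC at 9.14, 8.27 and 8.89 and moderate in A673 at 6.10, 5.07 and 5.57 (-3.19, SE 0.19). The hydrolase CMBL (-3.07, SE 0.17), TMEM71 (-2.59, SE 0.13), the junctional membrane protein JPH1 (-2.39, SE 0.12), the urea cycle enzyme ASS1 (-2.17, SE 0.20) and the brain creatine kinase CKB (-1.81, SE 0.12) were higher in SK-N-MC as well. The transcription factors POU3F2 (-2.09, SE 0.11) and MSX2 (-1.97, SE 0.10) followed TFAP2B and TSHZ3, while PAX6 was higher in A673 (1.81, SE 0.22). Of 41 neural and crest factors, 8 (19.5%, beside 13.5% of all genes) were called higher in A673 and 11 (26.8%, beside 11.4%) in SK-N-MC.

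The cell cycle entry genes showed opposite D-type cyclins. CCND1, cyclin D1, was at 9.39, 9.21 and 9.38 in A673 and at 7.75, 7.22 and 7.68 in SK-N-MC (1.78, SE 0.14), the reverse of CCND2. CDKN2A, which encodes the inhibitors p16 and ARF, was at 2.65, 2.49 and 2.38 in A673 and at 6.58, 6.05 and 6.39 in SK-N-MC (-3.83, SE 0.13, adjusted p = 7.45e-07). Its neighbours CDKN2B and MTAP on chromosome 9 were not called. CDKN2B was dim on all arrays (-0.13, SE 0.12, adjusted p = 0.495). MTAP was at 4.50, 4.13 and 4.47 in A673 and 4.76, 4.45 and 4.74 in SK-N-MC (-0.28, SE 0.13, adjusted p = 0.188). Genes around CDKN2A leaned to the same side as CDKN2A, with a median of -0.27. Of these 24 genes, 9 were called higher in SK-N-MC and 2 were called the other way. The part of position was not tested. The E-type cyclins CCNE1 (-1.49, SE 0.13) and CCNE2 (-1.52, SE 0.11) and the factors E2F3 (-0.96, SE 0.14) and E2F5 (-1.0, SE 0.16) were higher in SK-N-MC. Of 26 such genes 3 (11.5%, beside 13.5% of all genes) were called higher in A673 and 10 (38.5%, beside 11.4%) in SK-N-MC. A mean log2 of at least 4, where 16.4% of genes were called higher in SK-N-MC, was reached by 21 of the 26. Of 38 genes of replication and mitosis, 13 (34.2%) were called higher in A673 and 3 (7.89%) in SK-N-MC, with a median of 0.31. All 38 had a mean log2 of at least 4, where 22.5% of genes were called higher in A673 and 16.4% in SK-N-MC. The 3 were TOP2A (-1.21), CDC6 (-0.70) and MCM3 (-0.55), and TOP2A and CDC6 lie in a stretch of chromosome 17 described below. Genes around MCM3 had a median of -0.52. Around AURKB, CDT1, GINS2, TYMS and UBE2C, called higher in A673, the medians were 0.66, 0.585, 0.55, 0.27 and 0.05. The part of position was not tested on either side.

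Genes that the MAPK pathway switches on were higher in A673. MAPK signalling runs from growth factor receptors through RAS, RAF and ERK kinases, and ERK activity induces both ETS factors and feedback inhibitors. The ETS factor ETV1 was at 6.06, 5.88 and 5.91 in A673 and at 1.41, 1.49 and 1.48 in SK-N-MC (4.49, SE 0.11, adjusted p = 1.93e-07). The ERK phosphatase DUSP6 was at 7.77, 7.62 and 7.78 in A673 and at 4.06, 3.06 and 3.51 in SK-N-MC (4.18, SE 0.18). ETV5 was at 5.39, 5.43 and 4.68 in A673 and at 3.67, 3.12 and 2.68 in SK-N-MC (2.01, SE 0.21). All A673 arrays lay above all SK-N-MC arrays for the 3 genes (37.9% of all genes had no overlap). The feedback inhibitors DUSP5 (2.11, SE 0.20), SPRED2 (1.64, SE 0.12), SPRY4 (1.61, SE 0.17) and SPRY2 (1.29, SE 0.10) were called in the same direction. Of 24 genes in the list, 14 (58.3%) were called higher in A673, beside 13.5% of all genes, and 2 higher in SK-N-MC, the receptor EPHA4 (-1.03, SE 0.24) and the transcription factor MYC. EPHA4 was not called without either control array. MYC was at 7.54, 7.49 and 7.64 in A673 and at 8.50, 8.33 and 8.53 in SK-N-MC (-0.90, SE 0.11). The median of the list was 0.76, and 0.85, 0.86 and 0.91 in the control, siRNA 2 and siRNA 3 pairs. The receptor ligand HBEGF (1.56, SE 0.14) was also higher in A673. Of 48 growth factors and receptor kinases, 12 (25%, beside 13.5%) were called in that direction. In the other direction 5 (10.4%, beside 11.4% of all genes) were called, or 3 without A673 siRNA 3.

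Neuronal genes split between the lines by gene rather than by direction. The intermediate filament NEFM was at 5.91, 5.54 and 4.71 in A673 and at 2.10, 2.07 and 2.19 in SK-N-MC (3.27, SE 0.24). Its relative NEFH was at 4.92, 4.75 and 4.71 in A673 and at 7.08, 7.03 and 7.26 in SK-N-MC (-2.33, SE 0.12). The microtubule protein MAP1B was at 7.01, 6.81 and 6.80 in A673 and at 3.61, 4.12 and 4.13 in SK-N-MC (2.92, SE 0.15), while MAPT, which encodes tau, was at 2.02, 2.44 and 2.41 in A673 and at 6.03, 5.62 and 6.18 in SK-N-MC (-3.65, SE 0.17). Related cytoskeletal genes were thus high in opposite lines. Genes around NEFM and MAPT leaned to the same side as these genes, with medians of 0.92 and -0.705. Those around NEFH and MAP1B had medians of 0.05 and -0.02, and the part of position was not tested. NEFL (2.96, SE 0.24), the growth cone protein GAP43 (2.87, SE 0.22), the vesicle sensor SYT1 (2.73, SE 0.13) and neuronal enolase ENO2 (3.28, SE 0.12) were higher in A673, and the migration protein DCX (-1.86, SE 0.17) was higher in SK-N-MC. Of 31 genes, 11 (35.5%, beside 13.5% of all genes) were called higher in A673 and 6 (19.4%, beside 11.4%) in SK-N-MC. Axon guidance genes showed the same kind of split, with 8 (17.4%) and 11 (23.9%) of 46. The repellent SEMA3A (3.90, SE 0.16) and the receptors NEO1 (2.51, SE 0.15) and DCC were higher in A673, and SEMA6A (-2.13, SE 0.16), SEMA3C (-1.70, SE 0.19) and ROBO2 (-1.50, SE 0.13) in SK-N-MC.

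Cholesterol synthesis genes were higher in A673 almost throughout. This pathway builds sterols from acetyl-CoA and is switched on by SREBP factors when sterols run low. SC5D, a late desaturase, was at 6.83, 7.0 and 7.04 in A673 and at 4.37, 4.42 and 4.64 in SK-N-MC (2.48, SE 0.11, adjusted p = 2.98e-06). DHCR7, the last reductase, was at 8.83, 9.07 and 8.89 in A673 and at 6.91, 7.13 and 6.88 in SK-N-MC (1.96, SE 0.12). SQLE, squalene epoxidase, was at 8.43, 8.74 and 8.33 in A673 and at 7.27, 7.19 and 6.91 in SK-N-MC (1.38, SE 0.15). No array of SK-N-MC reached an A673 array in the 3 genes (37.9% of all genes had no overlap). Of 19 measured genes, 16 (84.2%, beside 13.5% of all genes) were called higher in A673 and 0 in SK-N-MC, with a median of 1.21. All 19 had a mean log2 of at least 4, where 22.5% of genes were called higher in A673. The 15 members that lie off chromosomes 6, 11 and 17 had the same median of 1.21, and 12 of them were called. This split does not remove position. Genes around MVD, MSMO1, SQLE and STARD4, on chromosomes 16, 4, 8 and 5, had medians of 0.62, 0.46, 0.37 and 0.13. Around IDI1 on chromosome 10, also higher in A673 (1.42, SE 0.11), the median was 1.05, with 14 of 15 genes called higher in A673. On chromosome 11 it was 1.25 around SC5D, with 21 of 24 called higher in A673, and 0.30 around DHCR7. The part of position was not tested. Of 30 glycolysis and hypoxia genes, 11 (36.7%) were called higher in A673 and 2 (6.67%) in SK-N-MC (median 0.22). A mean log2 of at least 4, where 22.5% and 16.4% of all genes were called, was reached by 24 of them. Without either control array the counts of calls were 7 and 0. The largest differences among them were those of ENO2, the hexokinase HK1 (2.62, SE 0.20) and the regulator PFKFB3 (1.69, SE 0.17).

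Ribosomal protein genes were higher in SK-N-MC in 21 of 39 cases (53.8%, beside 11.4% of all genes) and higher in A673 in 2, with a median of -0.44. A mean log2 of at least 4, where 16.4% of genes were called higher in SK-N-MC, was reached by 37 of the 39. The 2 calls higher in A673 were lost without either control array, either A673 siRNA array or SK-N-MC siRNA 3, and 1 was left without SK-N-MC siRNA 2. RPL14 was at 9.05, 9.09 and 9.04 in A673 and at 10.23, 10.16 and 10.41 in SK-N-MC (-1.21, SE 0.11). RPS6 was at 7.71, 7.77 and 7.84 in A673 and at 9.12, 8.94 and 9.04 in SK-N-MC (-1.26, SE 0.11). In neither gene did the lines overlap, beside 37.9% of all genes without overlap. The 4 members on chromosome 17 were all called and had a median of -1.06, and the 32 members off chromosomes 6, 11 and 17 had a median of -0.34 with 15 called higher in SK-N-MC. This split does not remove position: genes around RPL14 had a median of -0.61, and those around RPS24 0.03. Many of these genes have processed copies elsewhere in the genome that can share probes. Of 13 reference genes, 3 (23.1%) were called higher in A673: GAPDH (0.46, SE 0.10), ACTB (0.59, SE 0.11) and the polymerase subunit POLR2A (0.62, SE 0.11). The TATA-box binding protein gene TBP (-1.28, SE 0.10) was the 1 (7.69%) called higher in SK-N-MC. All 13 had a mean log2 of at least 4, where 22.5% and 16.4% of genes were called in these directions. The first share was thus near that of such genes and the second below it. The other 9 of 13 reference genes were not called, among them PGK1 at 8.57 to 8.74 in A673 and 8.58 to 8.73 in SK-N-MC.

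Among contractile and related genes, 9 of 25 (36%, beside 13.5% of all genes) were called higher in A673 and 4 (16%, beside 11.4%) in SK-N-MC. The LIM protein CSRP1 was at 8.03, 8.11 and 8.30 in A673 and at 3.31, 3.10 and 2.80 in SK-N-MC (5.08, SE 0.15), and caldesmon, CALD1, differed by 1.95 (SE 0.11). Tropomyosin TPM2 was higher in SK-N-MC (-1.41, SE 0.13). In the TGF-beta and BMP list of 40 genes, 8 (20%) were called higher in A673 and 10 (25%) in SK-N-MC. Its type II receptor gene TGFBR2 was at 5.53, 4.79 and 4.88 in A673 and at 2.65, 2.48 and 2.43 in SK-N-MC (2.55, SE 0.13), and its type I receptor gene TGFBR1 went the other way (-1.32, SE 0.13), as did BMP2 (-2.34, SE 0.13). In the WNT list of 41 genes, 7 (17.1%) were called higher in A673 and 6 (14.6%) in SK-N-MC, near the 13.5% and 11.4% of all genes. Without either control array 4 were called higher in A673. The receptor FZD4 was higher in A673 (2.17, SE 0.17) and the nuclear factor LEF1 in SK-N-MC (-2.50, SE 0.14). The RNA-binding protein LIN28B, which blocks let-7 processing, was at 1.33, 1.57 and 1.50 in A673 and at 5.55, 5.38 and 5.29 in SK-N-MC (-3.94, SE 0.12). HMGA1, a chromatin protein, was higher in SK-N-MC by -1.37, -0.47 and -1.33 in its 3 probe sets. Polycomb subunits SUZ12 (-1.35, SE 0.11), JARID2 (-1.50, SE 0.13) and EZH2 (-0.74, SE 0.11) were higher in SK-N-MC. Of 24 polycomb and repressor genes, 9 (37.5%, beside 11.4% of all genes) were called in that direction against 2 in the other. Without either control array the 9 became 5. A mean log2 of at least 4, where 16.4% of genes were called higher in SK-N-MC, was reached by 19 of the 24. Genes around SUZ12, JARID2 and EZH2 also had negative medians, at -0.53, -0.76 and -0.22, and the part of position was not tested.

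**Figure D3:**
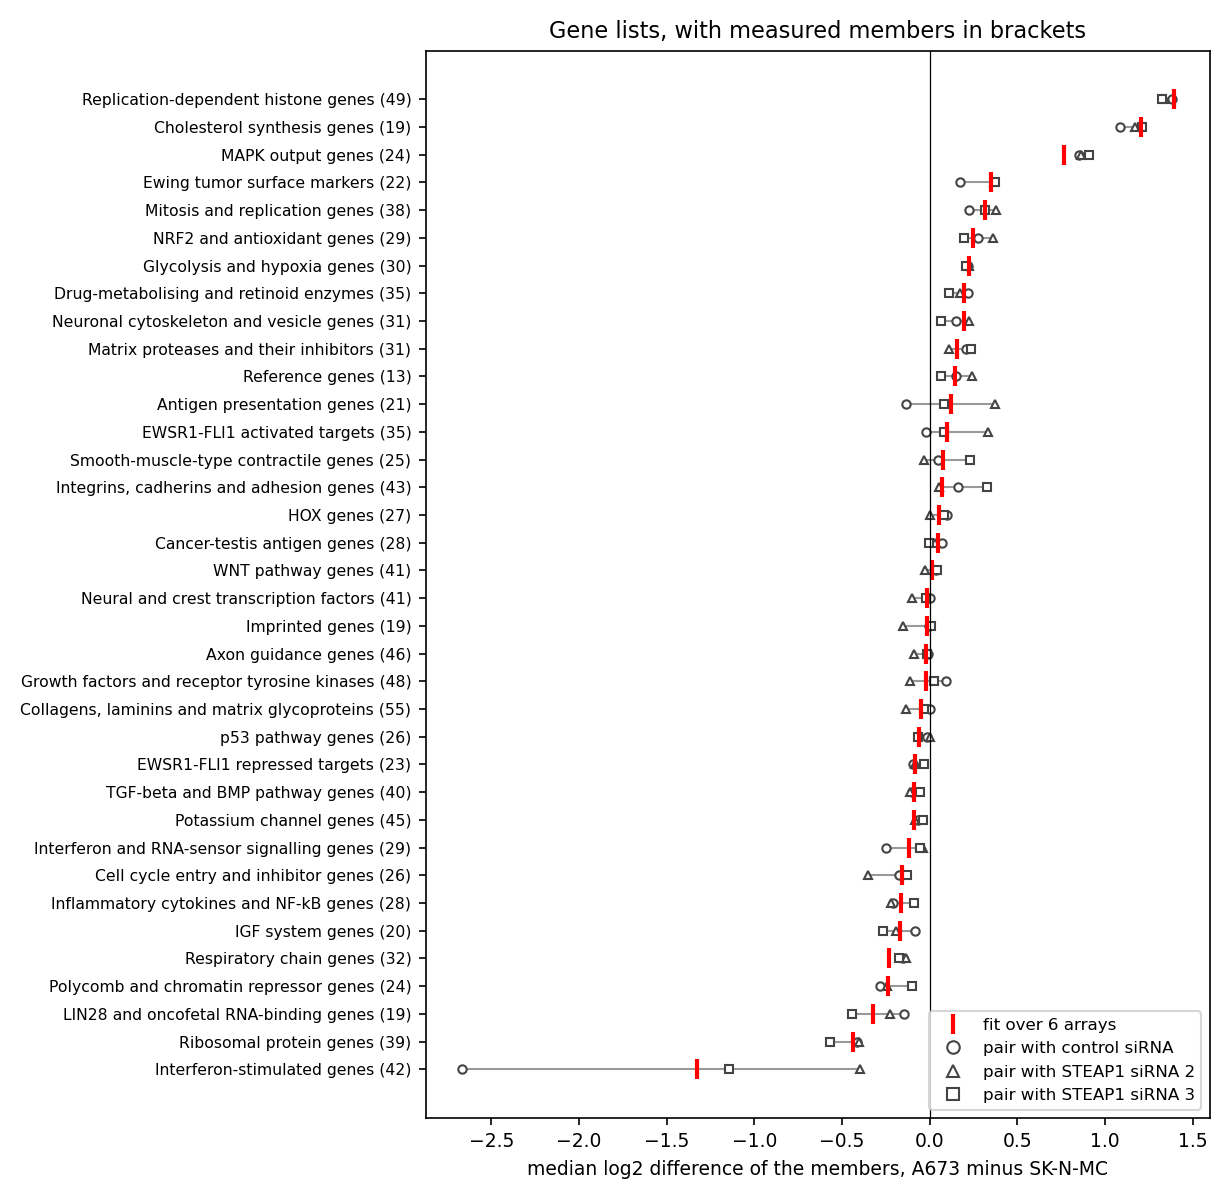
Median log2 difference (A673 minus SK-N-MC) of the measured members of each gene list, with the red bar for the fit over 6 arrays and open symbols for the control, siRNA 2 and siRNA 3 pairs of arrays. Histone, cholesterol and MAPK output lists stand furthest to the right in all 3 pairs, and interferon-stimulated genes furthest to the left in the fit, with medians from -2.67 in the control pair to -0.40 in the siRNA 2 pair, where the ribosomal list was level with them at -0.40.

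Interferon-stimulated genes were higher in SK-N-MC, by an amount that differed widely between its arrays. Type I interferons signal through STAT factors and IRF9 to a promoter element, the interferon-stimulated response element, here searched as GAAANNGAAA on both strands between 250 bases before and 50 bases after each start listed by RefSeq (GRCh38.p14). It was found for 27 of 35 list members with a promoter in the table (77.1%) and for 4.12% of the 14237 tested genes with a promoter. The sequences of 4 members with a difference of at least 3 and of the 1 member called the other way, PARP14, are shown to let the element be compared, 5′ to 3′ on the strand of the gene, with the element in capitals. They lie at chr1:78620262-78620321 (plus strand) for IFI44L, chr1:27672311-27672370 (minus strand) for IFI6, chr19:17405723-17405782 (minus strand) for BST2, chr10:89392485-89392544 (plus strand) for IFIT1 and chr3:122680788-122680847 (plus strand) for PARP14.
IFI44L: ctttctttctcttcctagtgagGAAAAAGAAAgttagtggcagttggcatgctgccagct
IFI6: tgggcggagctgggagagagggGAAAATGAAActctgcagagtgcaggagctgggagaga
BST2: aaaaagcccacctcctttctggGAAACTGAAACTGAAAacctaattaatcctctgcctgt
IFIT1: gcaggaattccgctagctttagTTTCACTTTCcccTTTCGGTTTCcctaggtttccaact
PARP14: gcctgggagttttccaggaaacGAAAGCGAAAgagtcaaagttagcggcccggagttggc
BST2 holds 2 overlapping copies and IFIT1 holds 2 copies that read on the opposite strand. PARP14 holds the element too. A match describes letters only and shows neither binding nor use.

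IFI6, a mitochondrial protein induced by interferon, was at 10.28, 7.76 and 9.73 in SK-N-MC and at 4.64, 4.50 and 4.23 in A673 (-4.80, SE 0.46, adjusted p = 1.67e-04). IFI44L was at 8.77, 5.01 and 7.83 in SK-N-MC and at 2.11, 2.15 and 1.86 in A673 (-5.16, SE 0.69). IFIT1, which binds foreign RNA ends, was at 8.39, 3.59 and 7.03 in SK-N-MC and at 2.70, 2.48 and 2.97 in A673 (-3.62, SE 0.88, adjusted p = 0.0171). In each gene the SK-N-MC arrays lay above all A673 arrays (37.9% of all genes had no overlap). The control array was the highest and the siRNA 2 array the lowest of the 3 SK-N-MC arrays. BST2, or tetherin, at 6.77, 4.13 and 5.78 in SK-N-MC beside 1.58, 1.97 and 1.49 in A673, had the same order. Of 42 members, 23 (54.8%, beside 11.4% of all genes) were called higher in SK-N-MC, 1 higher in A673 and 18 not at all, and the median was -1.33. The median was -2.67 in the control pair, -0.40 in the siRNA 2 pair and -1.15 in the siRNA 3 pair. On the siSTEAP1 arrays alone, which is the fit without either control array, 15 members were called higher in SK-N-MC with a median of -0.63. Without SK-N-MC siRNA 3 the count was 14, and without SK-N-MC siRNA 2 it was 34. A moderated test with trend and robust settings called 14, and with values below 4 set to 4 the count was 0, or 7 when genes at 4 on all arrays were left out. The call of IFIT1 was lost without either control array, without A673 siRNA 2 and without SK-N-MC siRNA 3.

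PARP14, an ADP-ribosyl transferase of the same list, was at 5.03, 4.86 and 4.75 in A673 and at 1.78, 1.69 and 1.70 in SK-N-MC (3.16, SE 0.10, adjusted p = 7.50e-07), the 1 member called in that direction, and was even across arrays. Members with the element in their promoter window had a median of -1.40 (13 of 27 called higher in SK-N-MC) and members without it -1.23 (5 of 8). Sensors of viral RNA were higher in SK-N-MC too. IFIH1 was at 6.15, 3.76 and 5.61 in SK-N-MC and at 1.67, 1.86 and 1.85 in A673 (-3.38, SE 0.47), and RIGI differed by -2.40 (SE 0.53) but was not called without either control array. IRF9, part of the factor that binds the element, was at 5.48, 4.27 and 5.16 in SK-N-MC and at 4.0, 3.83 and 3.91 in A673 (-1.06, SE 0.23). Of 29 signalling genes 7 (24.1%, beside 11.4% of all genes) were called higher in SK-N-MC and 2 (6.9%, beside 13.5%) higher in A673. Without either control array 3 were called higher in SK-N-MC. Among the genes at least 4-fold higher in SK-N-MC, 14.1% held the element, and outside the interferon list 2 of 67 did (2.99%).

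Whether the difference between the lines depended on silencing was tested as an interaction. limma called 0 of 18417 genes (0.0%), with 711 at an unadjusted p under 0.05 and a lowest adjusted p of 0.508. The 3 smallest p-values belonged to XAF1, GCA and IRF1. XAF1, an interferon-induced antagonist of apoptosis inhibitors, was at 5.07, 2.43 and 2.52 in SK-N-MC and at 1.98, 1.80 and 2.06 in A673. GCA was at 3.73, 2.10 and 2.19 in SK-N-MC and at 1.54, 1.79 and 1.68 in A673, and IRF1 at 3.96, 1.96 and 2.01 beside 2.05, 1.86 and 1.77. In each gene the SK-N-MC control array stood apart from the other 5. Omitting the siRNA 3 array of SK-N-MC gave 26 calls, 20 of them in the interferon-stimulated list, and the spread then rests on the A673 siRNA arrays alone. With 1 control array per line, a difference in silencing and a difference of that control array cannot be told apart.

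Replication-dependent histone genes, which supply chromatin proteins during S phase and whose transcripts normally end without a poly(A) tail, gave the largest positive median of all lists (1.39). H3C11 was at 10.51, 10.51 and 10.67 in A673 and at 2.95, 2.70 and 3.18 in SK-N-MC (7.62, SE 0.14, adjusted p = 1.93e-07), the largest difference of all genes. H2BC14 was at 9.64, 9.64 and 9.58 in A673 and at 3.49, 2.87 and 3.57 in SK-N-MC (6.31, SE 0.18). The linker histone gene H1-5 was at 9.95, 9.92 and 10.08 in A673 and at 4.66, 5.01 and 4.74 in SK-N-MC (5.18, SE 0.12). No SK-N-MC array reached an A673 array in the 3 genes (37.9% of all genes had no overlap). Of 49 members 32 (65.3%, beside 13.5% of all genes) were called higher in A673 and 9 (18.4%, beside 11.4%) in SK-N-MC. The split followed position in part: on chromosome 6 the calls were 32 and 6 of 45 with a median of 1.88, and on chromosome 1 they were 0 and 3 of 4 with a median of -0.75. The 14 members whose mean log2 over both lines reached 6 had 4 calls higher in A673, 7 higher in SK-N-MC and a median of -0.18. That limit leaves out genes bright in A673 and dim in SK-N-MC, such as H4C3. Its levels were 8.36, 8.22 and 7.99 in A673 and 3.75, 3.33 and 3.46 in SK-N-MC. The limit thus depends on the difference itself and cannot show whether direction follows level. H2AC20 was at 8.77, 8.65 and 8.52 in A673 and at 9.63, 9.68 and 9.74 in SK-N-MC (-1.04, SE 0.11). All 5 histone classes had members called higher in A673, from 3 of 5 for H1 to 6 of 8 for H3. The 6 other measured genes that lie between the chromosome 6 histone genes had a median of -0.25, and 0 were called higher in A673. Histone copies differ by few bases, so values of single genes are uncertain.

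Differences between the lines lay together along chromosomes. Among the 7413 genes whose mean log2 reached 4, 22.5% were called higher in A673 and 16.4% in SK-N-MC (median 0.02), the share of calls differed widely between chromosomes. On chromosome 11, 50.9% of 479 genes were called higher in A673 and 3.55% in SK-N-MC, with a median of 0.43. Chromosomes 8 (41.3%) and 16 (40.1%) followed on that side. On chromosome 6, 49.1% of 403 genes were called higher in SK-N-MC and 11.7% higher in A673, with a median of -0.43, and chromosome 3 (32.3%) and chromosome 5 (29.8%) followed. Chromosome 17 had both, at 26.6% and 27.5%. The medians of chromosomes 11 and 6 were 0.38, 0.57 and 0.43 and -0.49, -0.30 and -0.46 in the control, siRNA 2 and siRNA 3 pairs.

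**Figure D4:**
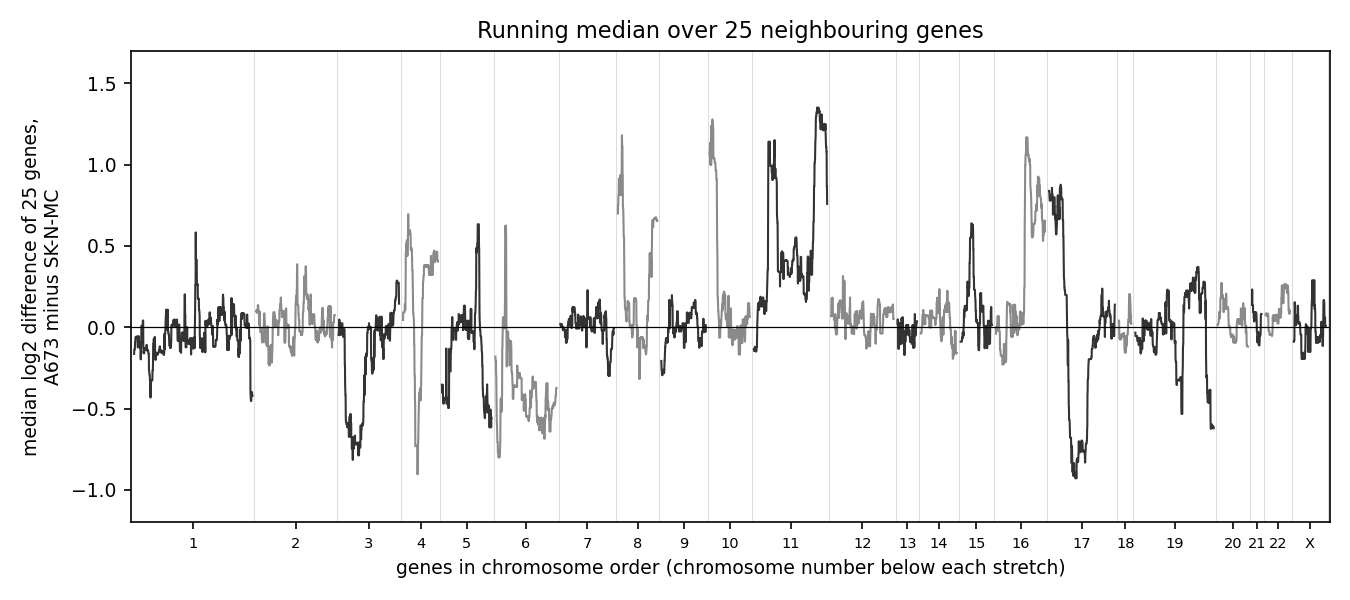
Running median of the log2 difference (A673 minus SK-N-MC) over 25 neighbouring genes whose mean log2 reached 4, drawn in gene order with alternating shades for chromosomes 1 to 22 and X. Windows reach 1.35 on chromosome 11 and -0.93 on chromosome 17.

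Windows of 25 neighbouring genes showed where on the chromosomes this arose. The highest window ran from YAP1 to SDHD on chromosome 11, with a median of 1.35, and 25 of its 25 genes were called higher in A673. YAP1, the effector of the Hippo pathway, was at 7.21, 6.66 and 7.22 in A673 and at 4.42, 4.52 and 4.16 in SK-N-MC (2.66, SE 0.17). The checkpoint kinase gene ATM was at 5.61, 5.66 and 5.68 in A673 and at 4.37, 4.13 and 4.49 in SK-N-MC (1.32, SE 0.12). The apoptosis inhibitor BIRC2 (1.48, SE 0.15), the caspase CASP4 (2.27, SE 0.23), the thiolase ACAT1 (2.10, SE 0.14) and the cytoskeletal linker RDX (1.85, SE 0.11) lie in it, as does MMP1. Differences in the window ran from 0.59 to 6.85, with MMP1 at the top. A neighbouring window from REXO2 to RNF26 had a median of 1.31 with 23 calls, led by IFT46 (3.03, SE 0.17) and the chaperone HYOU1 (2.54, SE 0.17). The third window, from USP6NL to ARHGAP21 on chromosome 10, had a median of 1.28 with 21 calls. It holds VIM, vimentin, at 9.15, 9.10 and 9.28 in A673 and 6.91, 6.72 and 6.92 in SK-N-MC (2.32, SE 0.12).

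On the other side, the window from ARHGAP23 to SMARCE1 on chromosome 17 had a median of -0.93 with 22 genes called higher in SK-N-MC. In it, the mediator subunit MED24 was at 5.18, 5.34 and 5.10 in A673 and at 6.83, 6.99 and 6.99 in SK-N-MC (-1.73, SE 0.11), IGFBP4, which binds insulin-like growth factors, differed by -1.67 (SE 0.14) and RPL23 by -1.46 (SE 0.12). TOP2A and CDC6 belong to the same window. The window from USP46 to SDAD1 on chromosome 4 had a median of -0.90 with 17 calls, among them the purine synthesis enzyme PPAT (-1.92, SE 0.11) and the polymerase subunit POLR2B (-1.86, SE 0.14). The window from RNU2-1 to GOSR2 on chromosome 17, with a median of -0.83 and 21 calls, holds MAPT and HEXIM1 (-2.14, SE 0.16). Each of the 6 windows kept its sign in the control, siRNA 2 and siRNA 3 pairs, and the medians of the first ranged from 1.23 to 1.36 over them. The windows were picked as the most extreme ones from the same arrays, so the shared sign is not separate support. DNA copy number was not measured, and its part in these values was not tested.

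**Figure D5:**
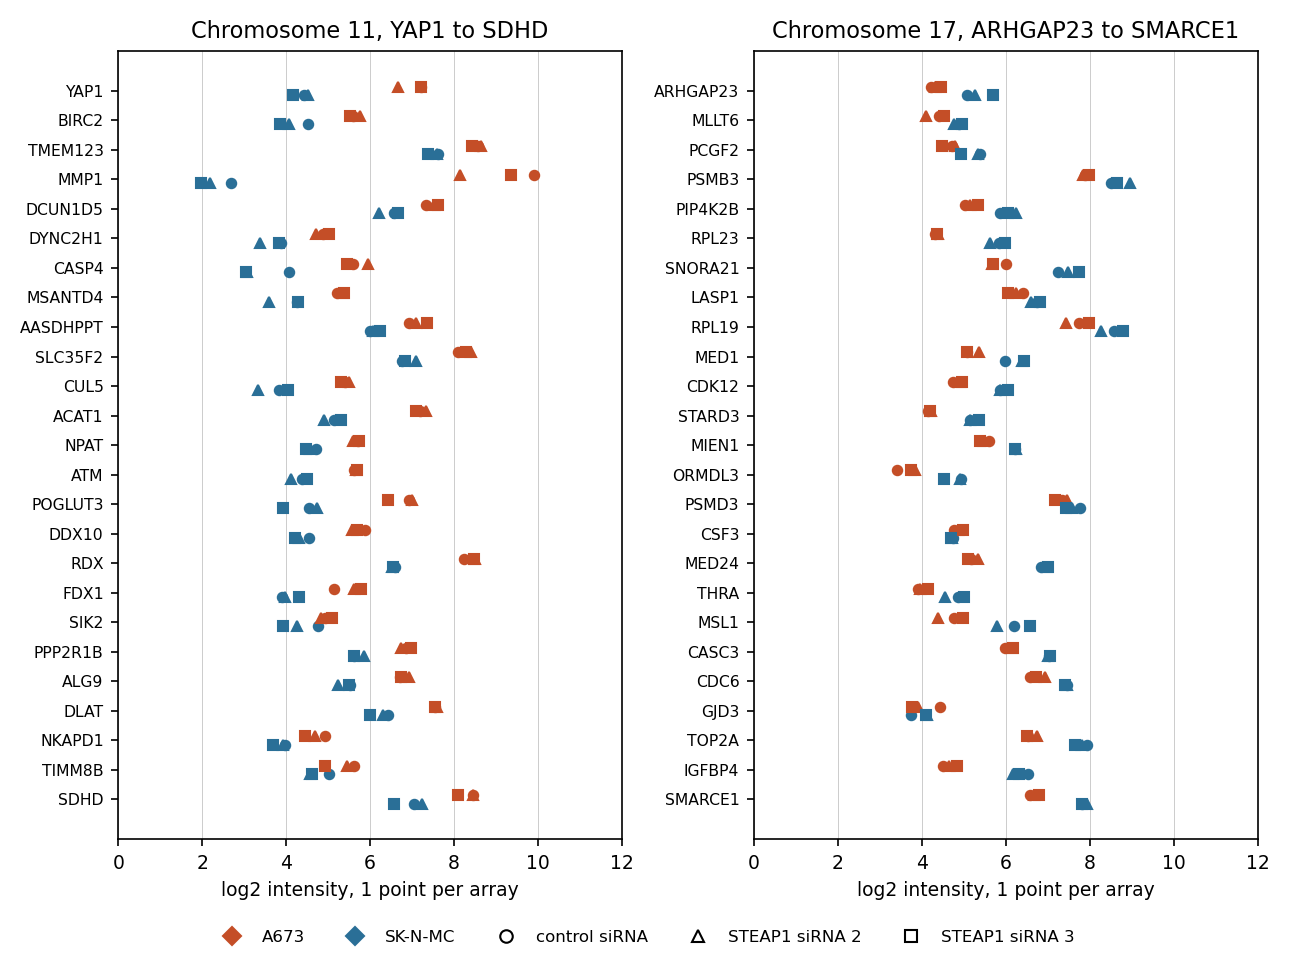
Log2 intensity of the 25 genes of the highest window (left, chromosome 11, YAP1 to SDHD) and the lowest window (right, chromosome 17, ARHGAP23 to SMARCE1), in gene order, 1 point per array. On the left all 25 genes were called higher in A673 and MMP1 stands apart by its distance, and on the right 22 of 25 were called higher in SK-N-MC.

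Some of the largest single differences sat in such stretches and others did not. The 24 nearest measured genes around each named gene, 12 on each side among those whose mean log2 reached 4, were taken as its neighbourhood. Genes near a chromosome end have fewer. Around MMP1 the neighbours had a median of 1.17 with 20 called higher in A673, around CES1 1.15 with 22, around AKR1C3 0.95 with 17 of 19 and around THY1 1.19 with 20. THY1 itself was at 6.61, 7.16 and 6.83 in A673 and at 2.31, 2.51 and 2.29 in SK-N-MC (4.50, SE 0.14). TNFRSF10D (0.92) and PAX6 (1.14) also had raised neighbours. Around DCC, KCNE4, CSRP1, OTX2, DLX5 and ETV1 the neighbour medians lay between -0.03 and 0.05, so these genes differed without their neighbours. In the other direction the neighbours of LIN28B (-0.62, 18 called higher in SK-N-MC), TFAP2B (-0.55) and ZNF667-AS1 (-0.60) were lower in A673 as well, and those of CCND2 (0.12), LCP1 (0.00) and NEFH (0.05) were not. Some genes went against their surroundings: TMEM71, higher in SK-N-MC, had neighbours at 0.55, and the microfibril protein MFAP4 (-2.07, SE 0.14) had neighbours at 0.72 with 15 called higher in A673 and 0 in SK-N-MC.

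Known targets of the fusion protein did not shift as a group. Of 35 activated targets, 9 (25.7%) were called higher in A673 and 6 (17.1%) in SK-N-MC, with a median of 0.10. Of them, 28 had a mean log2 of at least 4, where 22.5% and 16.4% of all genes were called, so both shares are near those. CAV1, caveolin, was at 10.22, 9.66 and 10.33 in A673 and at 7.92, 6.80 and 8.01 in SK-N-MC (2.49, SE 0.30, adjusted p = 5.20e-04). TNC, tenascin C, was at 7.55, 7.20 and 7.39 in A673 and at 6.67, 5.90 and 6.42 in SK-N-MC (1.05, SE 0.15). CCK, the cholecystokinin gene, went the other way at 2.47, 2.65 and 2.60 in A673 and 4.12, 4.59 and 4.03 in SK-N-MC (-1.67, SE 0.15). The 3 targets did not overlap between the lines, beside 37.9% of all genes without overlap, and IGF1 (-1.38, SE 0.14) was also higher in SK-N-MC. Of 23 repressed targets 2 (8.7%, beside 13.5% of all genes) were called higher in A673, with TGFBR2 first. In SK-N-MC 5 (21.7%, beside 11.4%) were called higher, with TIMP3 first. These counts became 1 and 3 without either control array. A repeated GGAA, searched as GGAAGGAA on both strands in the same promoter windows, was found for 5.0% of tested genes with a promoter, for 3 of 27 activated targets (11.1%), for 11.4% of genes at least 4-fold higher in A673 and for 7.69% of those at least 4-fold higher in SK-N-MC. Its copies in CAV1 (chr7:116524969-116525028, plus strand) and TNC (chr9:115118298-115118357, minus strand) are shown in capitals because both genes are listed targets, and both read on the opposite strand.
CAV1: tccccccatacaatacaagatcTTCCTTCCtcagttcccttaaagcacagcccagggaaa
TNC: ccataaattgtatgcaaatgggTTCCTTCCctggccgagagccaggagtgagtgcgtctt
Distal elements, where much of the fusion protein binds, are outside these windows.

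Among 22 surface proteins discussed as Ewing tumor targets, 9 (40.9%, beside 13.5% of all genes) were called higher in A673 and 4 (18.2%, beside 11.4%) in SK-N-MC. ADGRG2, an adhesion receptor, was at 7.24, 7.19 and 7.40 in A673 and at 4.33, 3.60 and 4.17 in SK-N-MC (3.24, SE 0.18). PROM1, which encodes CD133, differed by 1.45 (SE 0.11) and was under 3.2 on every array. The receptor KIT was at 4.26, 4.83 and 4.68 in A673 and at 5.73, 6.17 and 5.88 in SK-N-MC (-1.34, SE 0.12), and the chemokine receptor CXCR4 differed by -1.74 (SE 0.18). Of 28 cancer-testis antigens 1 (3.57%) was called higher in A673 and 0 in SK-N-MC, and of 45 potassium channel genes 5 (11.1%) and 4 (8.89%). Of 29 NRF2 and antioxidant genes, 12 (41.4%) were called higher in A673 and 5 (17.2%) in SK-N-MC. A mean log2 of at least 4, where 22.5% and 16.4% of all genes were called, was reached by 24 of the 29. Of 26 p53 pathway genes the counts were 6 (23.1%) and 3 (11.5%), and of 20 IGF system genes 2 (10%) and 5 (25%). Of 27 HOX genes 5 (18.5%, beside 13.5% of all genes) were called higher in A673, among them HOXB2 (1.63, SE 0.11) and HOXD8 (1.37, SE 0.14). In SK-N-MC 5 (18.5%, beside 11.4%) were called higher. Among them were HOXC11 (-0.82, SE 0.13) and HOXD13, at 7.03, 6.90 and 7.01 in A673 and 7.80, 7.74 and 7.79 in SK-N-MC.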

How the data were processed

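RNA of 3 A673 and 3 SK-N-MC samples was hybridised to Human Gene ST arrays (Affymetrix), from 200 ng of RNA per the labels' protocols. The deposited intensities are on a linear scale and were made by the authors with RMA (Expression Console 1.1 of Affymetrix), as the submitters' processing notes say; the genome build and the return to a linear scale are not given in the sources used here. RMA pulls low intensities together, which can understate differences of dim genes. Here log2 of each value was taken with no further normalization. Of 33297 probe sets, 19460 carried 1 gene symbol, 1754 several and 12083 none here. Gene identifiers gave current symbols from RefSeq (GRCh38.p14, 19429 matched), used otherwise only for gene order and promoter sequences, and the brightest probe set of a gene was kept (18417 genes).

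limma 3.58.1 in R 4.3.3 fitted cell line and silencing (3 residual degrees of freedom, two-sided). The interaction came from 4 group means (2 residual degrees of freedom). The number of arrays limits the precision, and 3 arrays against 3 cannot go below an exact permutation p of 0.1, so calls rest on the spread shared across genes. The fits were tested on simulated data. Lists are described by counts and medians, to be read beside the 13.5% of all genes called higher in A673 and the 11.4% higher in SK-N-MC.

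The comparison and the gene lists were chosen with earlier results of these data known. Named genes were the 30 largest called differences in each direction with at least log2 6 on every array of the higher line, genes on in 1 line only, up to 5 called members of each list in each direction, Ewing tumor markers and reference genes, up to 5 genes of 3 windows in each direction, and the 3 smallest interaction p-values. Other genes, such as CDKN2B, MTAP, ATM, BIRC2, RDX, SQLE, SYT1, IRF9, SPRED2, SPRY2 and SPRY4, the neighbourhood medians and the lists split by chromosome were chosen after their values were seen.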

Additional observations from a re-analysis of the deposited data

How the results depend on the processing

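The count of 4575 calls became 1169 where the mean log2 had to reach 6, 974 with values below 4 set to 4, and 6982 where arrays that do not overlap replaced the test. Setting values to 4 leaves 9952 genes with no spread in the fit; without those genes 3243 were called (an alternative chosen after seeing the data). The 323 calls of at least 4-fold became 176 and 34 where it had to reach 4 and 6, 106 with values below 4 set to 4 and 122 without the genes at 4 on all arrays. Leaving out single arrays gave 3204 to 4387 calls, 316 to 339 of at least 4-fold, and 0 to 26 in the interaction (26 without SK-N-MC siRNA 3). The 3204 calls are those of the siSTEAP1 arrays alone, whichever control array was left out. Limits of 7 and 5 in place of 8 and 4 gave 25 genes on in 1 line, 19 of them in A673. Windows of 15 genes reached 1.69 (chromosome 6, H2AC4 to H2BC9, histone genes) and -1.27 (chromosome 4, DCUN1D4 to POLR2B). A second quantile normalization gave 2326 calls higher in A673 and 2401 in SK-N-MC, and turned the sign of 1 list median, that of the imprinted genes (-0.01 to 0.04). The other alternatives kept these counts over all genes within 1.5 times; counts within lists moved more, and a mean log2 of at least 6 left few members in many lists. Of 357 named called genes, 349 stayed called after quantile normalization, 315 to 344 without single arrays and 149 with values below 4 set to 4, and none reversed under any alternative. With the label (control, 2 or 3) as a replicate block, 4720 genes were called and 323 of at least 4-fold. Deviations of arrays with the same label correlated between lines at 0.06 (controls), 0.03 and 0.11 over all genes, and at 0.27, 0.28 and 0.32 over genes whose mean log2 reached 6, where the other 6 pairs were negative (-0.05 to -0.27). Deviations from a line mean cancel within the line, so positive values for the same label largely force negative ones elsewhere. Over those brighter genes every array correlated best with the array of its own label, which over all genes did not hold for A673 siRNA 2; this is a hint from the data and not from the design. Since 2 of the 3 correlations over all genes were under 0.1 and the controls do not share a number, the pairing was not used.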

Other observations

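Of 20 spliceosomal and other small nuclear RNA genes, 13 (65%, beside 11.4% of all genes) were called higher in SK-N-MC and 0 (beside 13.5%) in A673. Of 175 small nucleolar RNA genes, 34 were called higher in SK-N-MC and 14 in A673, with 27.4% called in all beside 24.8% of all genes. Whether the probe sets of these small RNA genes are separate measurements was not tested. SNORD116-14 and SNORD116-15, from the imprinted Prader-Willi locus on chromosome 15, were at 4.96, 4.87 and 5.64 and at 6.46, 6.17 and 6.87 in A673, beside 7.41, 7.42 and 7.45 and 8.54, 8.55 and 8.88 in SK-N-MC. The differences were -2.27 (SE 0.19) and -2.16 (SE 0.19), and these genes have near-identical copies that can share probes. SNORD52 on chromosome 6 differed by -1.80 (SE 0.11). Of 632 long noncoding RNA genes 8.39% were called and of 173 microRNA genes 3.47%, both groups being dim, with median log2 levels of 1.82 and 1.38.

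Of 19 imprinted genes, 3 (15.8%, beside 13.5% of all genes) were called higher in A673 and 2 (10.5%, beside 11.4%) in SK-N-MC. MEG3 differed by 0.71 (SE 0.12), MEST by 0.86 (SE 0.15) and SGCE by 1.48 (SE 0.13). GRB10, an adaptor that dampens insulin receptor signalling, was at 1.29, 1.65 and 1.92 in A673 and at 3.81, 3.86 and 3.67 in SK-N-MC (-2.16, SE 0.15). In the antigen presentation list, ERAP1, which trims peptides, was at 5.66, 5.68 and 5.66 in A673 and at 4.91, 3.04 and 4.05 in SK-N-MC (1.67, SE 0.32), and HLA-DMA was higher in SK-N-MC (-1.35, SE 0.18).

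Some interferon-related genes were higher in A673, against the direction of most of the list. NMI was at 6.18, 6.49 and 6.50 in A673 and at 3.75, 2.32 and 2.49 in SK-N-MC (3.53, SE 0.29), with its SK-N-MC control array the highest of the 3, as for the genes that were higher in SK-N-MC. The proteasome subunit PSMB8 also had its highest SK-N-MC value on the control array, at 3.87, 2.64 and 2.32, beside 4.32 to 4.33 in A673.

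Among 13837 probe sets with several symbols or none, fitted on their own, 287 were called higher in A673 and 363 in SK-N-MC (4.70%), and none is named here.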
